A study of Mus musculus with 45 samples.

Results

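The regions described here are the ATACseq peaks around 9 genes of the Hippo-YAP pathway in mouse embryonic stem cells (ESCs) that lost SOX2, OCT4 or NANOG. A peak was taken as a member when its summit lay within 30 kb of the annotated 5′ end of Ccn2, Ccn1, Ankrd1, Amotl2, Lats1, Lats2, Yap1, Tead1 or Tead4, which gave 97 of the 184964 peaks in the series. A peak is named below by its gene and the signed distance of its summit from that 5′ end, so that Ankrd1 −4.7 kb lies 4.7 kb upstream of Ankrd1. The set was followed up because a peak upstream of Ccn2 and an intronic peak of Lats2 responded within hours. The SOX2-FKBP and OCT4-FKBP values of these 2 peaks are therefore a description and carry no test.

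In the Hippo pathway the kinases LATS1 and LATS2 phosphorylate the co-activator YAP1 and keep it out of the nucleus. Unphosphorylated YAP1 enters the nucleus but has no DNA-binding domain of its own and reaches its targets through TEAD factors such as TEAD1 and TEAD4, the latter known for its role in the trophectoderm of the mouse embryo. Ccn2, Ccn1 and Ankrd1 are classical YAP targets, and Lats2 and Amotl2 are targets that also restrain YAP, as a feedback. SOX2 and OCT4 bind DNA next to each other in pluripotent cells, OCT4 through an octamer of the POU family.

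The lines carried a homozygous FKBP degron on 1 factor each, also in the untreated cells, and the small molecule dTAG-13 (500 nM) sends the tagged factor to the proteasome. SOX2-FKBP and NANOG-FKBP were labelled E14, and OCT4-FKBP was labelled V6.5. Each change was measured against NT of the same line. In a difference between OCT4-FKBP and another line, the depleted factor and the parental line cannot be told apart. All cells grew on gelatin in medium without serum, with LIF and inhibitors of MEK and GSK3-β, and untreated (NT) cells received DMSO. SOX2-FKBP was sampled at NT and at 0.5, 1, 2, 6 and 24 hours post depletion (hpd) with 2 libraries each, OCT4-FKBP at NT, 2, 6 and 24 hpd with 2 libraries each, and NANOG-FKBP at NT with 2 libraries and at 2, 6 and 24 hpd with 3. The methods mention a further, independent SOX2-FKBP clone beside duplicate experiments, and the labels do not say which SOX2-FKBP libraries, if any, came from it. Nor do they say whether replicates were separate cultures, so p-values measure the spread between these libraries.

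Accessibility is given as normalized counts, the fragments in a peak per 10000000 fragments of the library after TMM scaling. The SOX2-FKBP values given per library were scaled within that line alone, and those of OCT4-FKBP and NANOG-FKBP across the 3 lines. Levels of SOX2-FKBP and the other lines are thus on separately computed scales. Total counts ranged from 1817191 to 17575631 per library, and the NANOG-FKBP replicate 2 libraries after treatment stood apart, with the lowest totals and up to 17.6% of counts on the mitochondrial genome against at most 6.65% in the other libraries. Of the 8 ESC marker genes listed, 6 had a start peak of at least 50 normalized counts in NT cells of each line, and so did 4 of 5 trophoblast and 3 of 3 mesoderm markers, so an open start did not separate these lineages. The fibroblast list had 1 of 5 such starts.

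The members divide into 81 distal peaks, 10 at an annotated transcript start of a member gene and 6 at the start of another gene. Tead4 had 18 peaks, Tead1 13, Ccn2 and Amotl2 12 each, Yap1 11, Ccn1 and Ankrd1 9 each, Lats1 7 and Lats2 6. No peak lay within 1 kb of the Ankrd1 start. After the filter on low counts, 91 members were tested in the SOX2-FKBP libraries and 90 across the 3 lines, while 4 were tested in neither. The limit of 30 kb fell between Ccn2 +29.9 kb, which is inside, and Amotl2 +30.3 kb, which is outside. At 24 hpd of OCT4 their log2 changes were 0.92 and 1.02, and the other comparisons lay between −0.52 and 0.29 for the first and between −0.63 and 0.65 for the second.

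The sequence around each summit was read from GRCm38 over 300 bases and searched on both strands. The POU octamer ATGNAAAT was found at 5 of 97 members, or 5.15%, against 6.3% of all peaks. These 5 occurrences are shown because they include both peaks that led to this set. Each is written in the direction of its octamer, which is in capitals, with 16 bases on either side.
Ccn2 −4.1 kb, minus strand, chr10:24591176-24591215: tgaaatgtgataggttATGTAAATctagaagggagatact
Ccn1 −1.6 kb, plus strand, chr3:145651600-145651639: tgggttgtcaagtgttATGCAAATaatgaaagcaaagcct
Lats2 +25.5 kb, minus strand, chr14:57732819-57732858: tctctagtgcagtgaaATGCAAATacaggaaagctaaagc
Tead1 +9.4 kb, minus strand, chr7:112688611-112688650: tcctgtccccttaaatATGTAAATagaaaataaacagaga
Tead4 −17.7 kb, plus strand, chr6:128318507-128318546: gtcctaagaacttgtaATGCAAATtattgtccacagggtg
Of the 5, 3 hold ATGCAAAT, and those of Ccn2 −4.1 kb and Tead1 +9.4 kb hold ATGTAAAT. The composite of a SOX pattern followed after 1 base by a POU pattern was found at 0 of 97 members and at 0.0731% of all peaks. The SOX pattern ACAANG occurred at 46 members, or 47.4%, against 49.2% of all peaks.

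The TEAD pattern GGAATG occurred at 25 members, or 25.8%, against 18.8% of all peaks, and the KLF pattern GGGNGTGG at 23, or 23.7%, against 17%. The 150 bases before the Ccn2 start on the plus strand of GRCm38 are shown for their 3 TEAD matches, in capitals.
Ccn2 upstream bases, chr10:24595292-24595441: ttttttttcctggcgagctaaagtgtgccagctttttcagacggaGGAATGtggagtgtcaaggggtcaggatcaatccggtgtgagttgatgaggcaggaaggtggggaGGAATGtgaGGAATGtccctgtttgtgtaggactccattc
The matches began −105, −40 and −31 bases from the annotated 5′ end. A match is a description of these letters and says nothing about occupancy.

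Ccn2 codes for a secreted matricellular protein. The peak 4.1 kb upstream of it covers chromosome 10 from 24590291 to 24591654, in an intron of the gene Gm15270. It is called the Ccn2 enhancer here as a name only, since its activity and its target gene were not tested. Its 300 bases around the summit are shown because no other member of at least 50 normalized counts at NT had as small a share left at 0.5 hpd of SOX2, with the octamer, read on the opposite strand, in capitals.
Ccn2 −4.1 kb, plus strand, chr10:24591165-24591464: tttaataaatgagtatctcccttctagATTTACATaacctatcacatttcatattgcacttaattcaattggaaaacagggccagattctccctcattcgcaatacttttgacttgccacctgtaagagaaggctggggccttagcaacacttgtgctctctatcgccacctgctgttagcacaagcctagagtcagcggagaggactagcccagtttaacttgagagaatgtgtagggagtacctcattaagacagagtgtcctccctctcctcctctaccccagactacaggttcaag
Before treatment of SOX2-FKBP cells the 2 libraries held 269 and 222 normalized counts. The later libraries held 110 and 130 at 0.5 hpd, 118 and 88.9 at 1 hpd, 80.8 and 71 at 2 hpd, 83.9 and 76.5 at 6 hpd, and 59.9 and 56.1 at 24 hpd. In bulk libraries like these, a loss in some of the cells and a partial loss in all of them cannot be told apart. Every treated library lay below both NT libraries, and 49% of the NT mean was left at 0.5 hpd, 31% at 2 hpd and 23.6% at 24 hpd. The log2 changes were −1.06 (SE 0.18) at 0.5 hpd, −1.70 (SE 0.19) at 2 hpd and −2.09 (SE 0.20) at 24 hpd.

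The same enhancer was lower after OCT4 depletion. NT held 262 and 319 normalized counts, and the treated libraries held 88 and 99.6 at 2 hpd, 87.1 and 93.3 at 6 hpd, and 80.9 and 68.3 at 24 hpd, again with no overlap. The log2 change was −1.63 (SE 0.23) at 2 hpd and −1.96 (SE 0.25) at 24 hpd. After NANOG depletion the groups overlapped at each time, with 262 and 285 normalized counts at NT and 234, 301 and 263 at 2 hpd. The log2 change of −0.07 (SE 0.21) at 2 hpd in NANOG-FKBP cells was not called, nor were 0.11 at 6 hpd and 0.15 at 24 hpd, with adjusted p-values from edgeR's quasi-likelihood test of 1, 0.998 and 0.885.

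The start of Ccn2, 4.1 kb away from this enhancer, was not called in any line. NT of SOX2-FKBP held 369 and 353 normalized counts, and the treated libraries ranged from 304 to 403. Its log2 change lay between −0.12 and 0.00 (SE 0.15 to 0.16), with adjusted p-values from 0.788 to 0.998. In OCT4-FKBP cells it was 0.06, 0.20 and 0.25 at 2, 6 and 24 hpd, and the largest value in NANOG-FKBP cells was 0.51 (SE 0.21, adjusted p = 0.306) at 24 hpd, none of them called by edgeR.

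**Figure D1:**
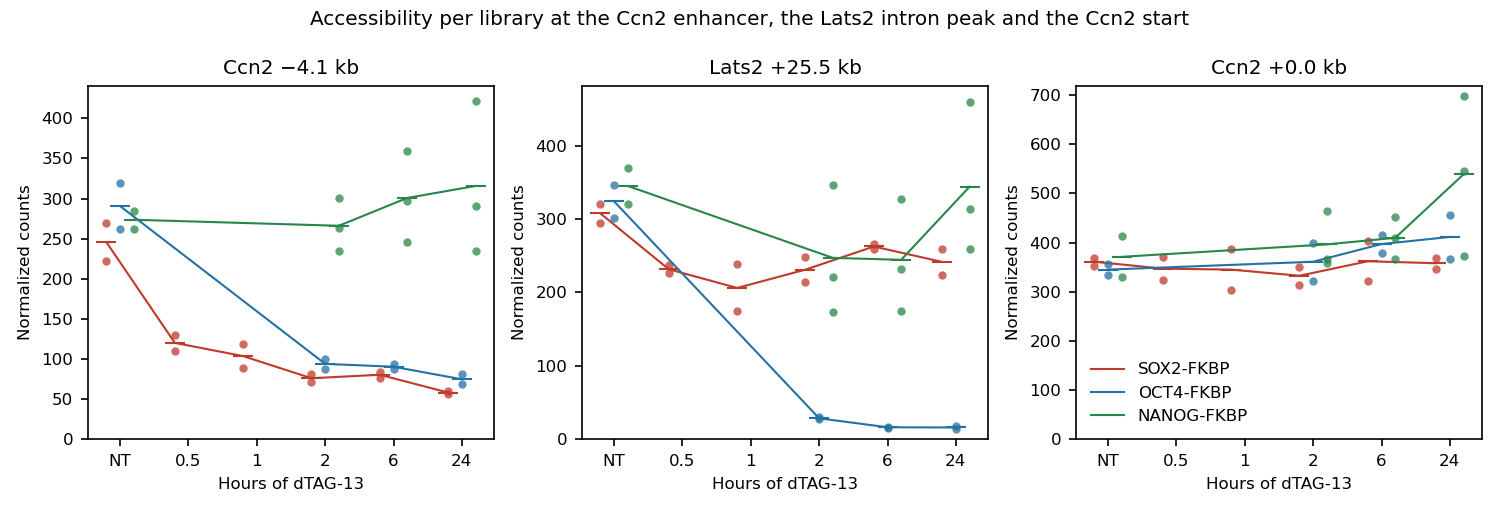
Normalized counts (vertical axis) of the Ccn2 −4.1 kb enhancer, the Lats2 +25.5 kb intron peak and the Ccn2 start peak against hours of dTAG-13, with NT at the left and hours not drawn to scale. Points are libraries, short bars and lines are group means for SOX2-FKBP (red), OCT4-FKBP (blue) and NANOG-FKBP (green); the enhancer is lower after treatment in the red and blue lines, the Lats2 peak ends at 13.7 and 17.9 in the blue line, and the start peak lies at 304 or more in every library.

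The Lats2 intron peak covers chromosome 14 from 57732416 to 57733285, 25.5 kb inside the gene of the YAP kinase LATS2. It also lies in an intron of the gene model Gm49361. Its 300 bases are shown because no other member lost as large a share of its accessibility in any line by 2 hpd, among members of at least 50 normalized counts at NT.
Lats2 +25.5 kb, plus strand, chr14:57732735-57733034: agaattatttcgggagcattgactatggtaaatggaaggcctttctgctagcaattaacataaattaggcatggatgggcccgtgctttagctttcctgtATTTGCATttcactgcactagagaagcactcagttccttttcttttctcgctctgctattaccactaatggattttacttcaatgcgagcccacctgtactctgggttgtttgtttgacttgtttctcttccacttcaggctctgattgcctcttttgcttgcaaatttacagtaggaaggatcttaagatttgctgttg
In OCT4-FKBP cells NT held 346 and 302 normalized counts against 27.1 and 29.5 at 2 hpd, 15.5 and 16.7 at 6 hpd, and 13.7 and 17.9 at 24 hpd. Thus 8.72% of the NT mean was left at 2 hpd and 4.88% at 24 hpd, with log2 changes of −3.50 (SE 0.29) and −4.35 (SE 0.35). In SOX2-FKBP cells NT held 295 and 320 normalized counts and every treated library was lower, between 174 and 266. There 75.1% of the NT mean was left at 2 hpd and 78.7% at 24 hpd, with log2 changes of −0.41 (SE 0.16) and −0.34 (SE 0.16). NANOG-FKBP libraries spread widely, from 173 to 347 normalized counts at 2 hpd against 370 and 320 at NT. The log2 change there was −0.59 (adjusted p = 0.453, edgeR) at 2 hpd, and without the shallow replicate 2 library it was −0.83 (adjusted p = 0.115). At 6 and 24 hpd the change was −0.55 and −0.06 (adjusted p = 0.48 and 0.975).

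By a rule set for these data, the 5 peaks of at least 50 mean normalized counts whose 14 group means, as log2 ratios to NT of each line, correlated best with each of these 2 peaks were listed. For the Ccn2 enhancer these lay nearest to Il15, Eif4e2, Gm5155, Becn1 and Mrpl13, with Pearson's r from 0.9931 to 0.994. For the Lats2 peak they lay nearest to Zfp664, M1ap, Pid1, Fkbp4 and Sox9, with r from 0.9849 to 0.9961. These correlations are across 14 group means that share libraries and NT samples, and describe likeness of pattern only.

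Beside the enhancer, 3 more peaks of the Ccn2 locus lost accessibility in both the SOX2-FKBP and the OCT4-FKBP line by 24 hpd. Ccn2 −26.0 kb fell from 43.6 and 37.2 normalized counts at NT to 16.2 and 19.9 at 2 hpd of SOX2, a log2 change of −1.17 (SE 0.31, adjusted p = 0.00969, edgeR). In OCT4-FKBP cells it fell from 26.3 and 24.7 to 5.8 and 13.8, a log2 change of −1.28 (SE 0.38, adjusted p = 0.0281). Ccn2 +20.6 kb held 16.9 and 24.3 normalized counts at NT of SOX2-FKBP and 3.33 and 1.08 at 24 hpd, and 55.8 and 65 at NT of OCT4-FKBP and 4.58 and 4.88 at 24 hpd. Its log2 changes at 24 hpd were −3.10 (SE 0.65, adjusted p = 0.000363, edgeR) and −3.65 (SE 0.44, adjusted p = 5.26e-08). Ccn2 +21.3 kb also fell by 24 hpd, with log2 changes of −2.18 in SOX2-FKBP and −2.25 in OCT4-FKBP (adjusted p = 0.00214 and 0.00639, edgeR). All 3 peaks hold fewer counts than the enhancer, and Ccn2 −26.0 kb, Ccn2 +21.3 kb, Amotl2 −26.2 kb and Tead1 +12.2 kb were singled out after their values were seen. At 2 hpd the call on Ccn2 −26.0 kb was lost in SOX2-FKBP without NT replicate 1 (−1.03, adjusted p = 0.187) or treated replicate 1 (−1.05, adjusted p = 0.106), and in OCT4-FKBP without either NT library or treated replicate 1 (adjusted p from 0.106 to 0.376). The 24 hpd call in OCT4-FKBP was lost for Ccn2 −26.0 kb without treated replicate 1 (−1.93, adjusted p = 0.0505) and for Ccn2 +21.3 kb without NT replicate 2 or either treated library (adjusted p from 0.0553 to 0.0972). The call on Ccn2 +20.6 kb at 2 hpd of OCT4, a log2 change of −1.03, was lost without NT replicate 2 (−0.90, adjusted p = 0.155) or without either treated library (adjusted p = 0.108 and 0.113).

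Ccn1 codes for a matricellular relative of CCN2. Ccn1 −1.6 kb, on chromosome 3 from 145651398 to 145651941, overlaps an exon of the gene Gm17501, 498 bases from a transcript start of that gene, and holds an octamer. After OCT4 depletion it went from 171 and 117 normalized counts at NT to 65.8 and 57 at 2 hpd and 71.6 and 51.9 at 6 hpd, then stood at 154 and 137 at 24 hpd. The log2 change was −1.22 (SE 0.26, adjusted p = 0.0012, edgeR) at 2 hpd and −1.21 (SE 0.25, adjusted p = 0.000561) at 6 hpd, and 0.03 (SE 0.25, adjusted p = 0.959) at 24 hpd. In SOX2-FKBP cells it fell from 144 and 168 normalized counts to 97.6 and 90.9 at 6 hpd and 79.8 and 63.6 at 24 hpd. Those log2 changes were −0.72 (SE 0.19, adjusted p = 0.00666, edgeR) and −1.11 (SE 0.20, adjusted p = 3.89e-05). The difference between the lines at 24 hpd, −1.10, did not pass its own test (adjusted p = 0.107, edgeR). The 2 hpd call in OCT4-FKBP was lost without NT replicate 1 (−0.93, adjusted p = 0.0591) or treated replicate 2 (−1.09, adjusted p = 0.055), and the 6 hpd call in SOX2-FKBP was lost without NT replicate 2 (−0.61, adjusted p = 0.103) or treated replicate 2 (−0.66, adjusted p = 0.0833). With the replicate number as a block, SOX2-FKBP was called at 1 hpd (−0.49, adjusted p = 0.0474) and 2 hpd (−0.45, adjusted p = 0.0459) as well.

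Ankrd1 codes for a nuclear ankyrin repeat protein. Ankrd1 −4.7 kb, on chromosome 19 from 36124064 to 36125142 in intergenic sequence, was the only member called in NANOG-FKBP cells at 2 and 6 hpd, and 1 of 2 members that lost accessibility in all 3 lines. The share of all peaks lost in all 3 lines was not counted. Its 300 bases are shown because they hold none of the SOX, POU, TEAD or KLF patterns searched, so nothing is in capitals.
Ankrd1 −4.7 kb, plus strand, chr19:36124660-36124959: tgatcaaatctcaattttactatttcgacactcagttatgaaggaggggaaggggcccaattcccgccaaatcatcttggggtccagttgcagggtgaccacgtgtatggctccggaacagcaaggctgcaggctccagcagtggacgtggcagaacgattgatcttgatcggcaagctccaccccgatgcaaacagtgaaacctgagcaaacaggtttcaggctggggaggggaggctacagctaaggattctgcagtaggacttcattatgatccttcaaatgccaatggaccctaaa
NANOG-FKBP cells held 85.9 and 145 normalized counts at NT and 18.3, 32.7 and 61.7 at 2 hpd, 27.3, 21.5 and 43.1 at 6 hpd, and 18.7, 27.2 and 37.5 at 24 hpd. Every treated library lay below both NT libraries, with log2 changes of −1.74 (SE 0.35, adjusted p = 0.00407), −1.91 (SE 0.34, adjusted p = 0.000875) and −2.08 (SE 0.34, adjusted p = 0.000113) by edgeR. Without the shallow replicate 2 library of the same time the values were −1.73, −1.82 and −2.09 and stayed called. Without NT replicate 2 the 2 and 6 hpd values of −1.35 and −1.51 were not (adjusted p = 0.144 and 0.061), nor was the 2 hpd value without treated replicate 1 (−1.14, adjusted p = 0.219).

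The same Ankrd1 peak went in OCT4-FKBP cells from 57.5 and 75.1 normalized counts to 18.4 and 24.9 at 2 hpd and to 10.7 and 13 at 24 hpd. The log2 change was −1.60 (SE 0.35, adjusted p = 0.00176, edgeR) and −2.48 (SE 0.45, adjusted p = 5.02e-05). SOX2-FKBP cells held 119 and 85.7 at NT, 48.5 and 51.1 at 2 hpd and 23.3 and 30.2 at 24 hpd, with log2 changes of −1.07 (SE 0.24, adjusted p = 0.00199) and −1.96 (SE 0.27, adjusted p = 5.86e-07). Without NT replicate 1 the SOX2-FKBP changes at 2 and 6 hpd were −0.78 and −0.74 and not called (adjusted p = 0.193 and 0.184), nor was the 6 hpd change without treated replicate 1 (−0.84, adjusted p = 0.068). Blocking on the replicate number, the peak was also called in SOX2-FKBP at 0.5 hpd (−0.73, adjusted p = 0.00872) and 1 hpd (−0.77, adjusted p = 0.00369). A neighbour, Ankrd1 −9.3 kb, moved the other way in SOX2-FKBP cells, from 47.6 and 35.6 normalized counts to 66.8 and 77.6 at 2 hpd, a log2 change of 0.76 (SE 0.24, adjusted p = 0.0433). That call was lost without any of the 4 libraries compared, with adjusted p-values from 0.0854 to 0.319, and under DESeq2 (adjusted p = 0.27), while with the block the peak was called at 0.5, 1, 6 and 24 hpd too (adjusted p from 0.011 to 0.046).

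TEAD1 is one of the factors that bring YAP1 to DNA. Tead1 +9.4 kb, in an intron of Tead1 on chromosome 7 from 112688377 to 112689090, fell further after OCT4 than after SOX2 depletion. OCT4-FKBP cells went from 268 and 238 normalized counts to 82.2 and 89.8 at 2 hpd, 47.7 and 56.2 at 6 hpd, and 29 and 30.9 at 24 hpd, so that 11.8% of the NT mean was left. SOX2-FKBP cells went from 218 and 264 to 120 and 130 at 2 hpd, 124 and 141 at 6 hpd, and 96.5 and 104 at 24 hpd, or 41.5% of the NT mean. At 24 hpd the log2 change was −3.07 (SE 0.31, adjusted p = 8.8e-10, edgeR) and −1.26 (SE 0.19, adjusted p = 2.72e-06). The difference SOX2 minus OCT4 passed its own test at 6 hpd (1.48, SE 0.35, adjusted p = 0.0107) and at 24 hpd (1.85, SE 0.41, adjusted p = 0.0054), but not at 2 hpd (0.67, SE 0.35, adjusted p = 0.571). Without SOX2-FKBP NT replicate 1 neither difference passed (1.25 and 1.68, adjusted p = 0.135 and 0.0523), nor did that at 6 hpd without SOX2-FKBP 6 hpd replicate 2 (1.29, adjusted p = 0.109) or OCT4-FKBP 6 hpd replicate 1 (1.37, adjusted p = 0.0598). NANOG-FKBP libraries overlapped at each time, from 135 to 322 after treatment against 282 and 208 at NT.

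A further annotated start of Tead1, at Tead1 +12.2 kb, fell too. It held 551 and 589 normalized counts at NT of SOX2-FKBP and 359 and 295 at 24 hpd, a log2 change of −0.80 (SE 0.15, adjusted p = 9.03e-05, edgeR). In OCT4-FKBP cells it went from 808 and 591 to 535 and 472 at 2 hpd and 168 and 239 at 24 hpd, a log2 change of −1.78 (SE 0.24, adjusted p = 3.33e-07) at the last time. At 6 hpd it held 406 and 434 there (−0.73, SE 0.22, adjusted p = 0.0217), a call lost without NT replicate 1 or either treated library (adjusted p from 0.0912 to 0.314). In NANOG-FKBP cells its log2 change lay between 0.01 and 0.08. Tead1 +5.7 kb was called at 1 hpd of SOX2, going from 59.5 and 66.3 to 30.9 and 34.2 normalized counts (log2 change −0.95, SE 0.26, adjusted p = 0.0202, edgeR). That call was lost under DESeq2 (adjusted p = 0.209). It was also lost without NT replicate 1, NT replicate 2 or treated replicate 1 (−1.03, −0.88 and −0.86). The block, in contrast, also called this peak at 0.5 and 2 hpd (−0.80 and −0.67, adjusted p = 0.0287 and 0.0328).

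Tead4, which codes for the TEAD factor of the early trophectoderm, held the member whose change differed between the SOX2 and OCT4 lines at each of 2, 6 and 24 hpd. Tead4 +20.0 kb, in an intron on chromosome 6 from 128280346 to 128281396, went in OCT4-FKBP cells from 247 and 352 normalized counts at NT to 121 and 170 at 2 hpd, 126 and 133 at 6 hpd, and 97.7 and 107 at 24 hpd. SOX2-FKBP cells went from 172 and 184 to 223 and 228, 246 and 225, and 220 and 222, all above NT. The log2 change in OCT4-FKBP was −1.04 (SE 0.22, adjusted p = 0.000952, edgeR) at 2 hpd and −1.55 (SE 0.23, adjusted p = 2.66e-06) at 24 hpd. The rises in SOX2-FKBP were not called, although the block made the one at 6 hpd a call (0.41, adjusted p = 0.034). The difference SOX2 minus OCT4 was 1.45 (SE 0.31, adjusted p = 0.00589) at 2 hpd, 1.67 (SE 0.31, adjusted p = 0.000588) at 6 hpd and 1.90 (SE 0.32, adjusted p = 0.000275) at 24 hpd. The NT counts themselves were higher in OCT4-FKBP than in SOX2-FKBP cells, on separately computed scales, and this difference was not tested. The 2 hpd call in OCT4-FKBP was lost without NT replicate 2 (−0.74, adjusted p = 0.0948) or treated replicate 1 (−0.82, adjusted p = 0.07). The difference at 2 hpd was lost without either of these, SOX2-FKBP NT replicate 1 or SOX2-FKBP 2 hpd replicate 1 (adjusted p from 0.0506 to 0.107), and those at 6 and 24 hpd were not lost without any library. Its NANOG-FKBP libraries overlapped with NT at each time.

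Tead4 +4.1 kb was the other member that lost accessibility in all 3 lines, and did so late. At 24 hpd it held 160 and 133 normalized counts in SOX2-FKBP against 292 and 312 at NT, 115 and 229 in OCT4-FKBP against 365 and 477, and 136, 154 and 123 in NANOG-FKBP against 327 and 211. The log2 changes in SOX2-FKBP and OCT4-FKBP were −1.04 (SE 0.17, adjusted p = 1.19e-05) and −1.30 (SE 0.26, adjusted p = 0.00022) by edgeR. In NANOG-FKBP the peak fell by 1.00 on the log2 scale (SE 0.25, adjusted p = 0.0149). At 2 hpd of OCT4 the same peak had risen to 717 and 754 normalized counts, a log2 change of 0.80 (SE 0.24, adjusted p = 0.0309). Without NT replicate 1 that rise was 0.63 (adjusted p = 0.324), and without either treated library it was not called either (adjusted p = 0.101 and 0.125). The NANOG-FKBP fall at 24 hpd was −0.65 (adjusted p = 0.471) without its NT replicate 1, and it was not called without treated replicate 1 or 3 (adjusted p = 0.0647 and 0.109). With the block OCT4-FKBP was also called higher at 6 hpd (0.48, adjusted p = 0.0205).

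Tead4 −1.2 kb, just upstream of the start, rose in SOX2-FKBP cells from 62.5 and 64.7 normalized counts to 116 and 91.8 at 2 hpd and 129 and 114 at 6 hpd, with log2 changes of 0.71 (SE 0.21, adjusted p = 0.0249, edgeR) and 0.94 (SE 0.21, adjusted p = 0.00111). The 2 hpd call was lost without either NT library or treated replicate 1 (adjusted p from 0.109 to 0.327) and under DESeq2 (adjusted p = 0.161). At 24 hpd of SOX2 the change of Tead4 −1.2 kb was 0.70 (adjusted p = 0.0132, edgeR), a call lost under DESeq2 (adjusted p = 0.0853) and without treated replicate 2 or either NT library (adjusted p from 0.0556 to 0.124). In the fit of 27 libraries its SOX2-FKBP rises at 2, 6 and 24 hpd were not called (adjusted p = 0.263, 0.0715 and 0.158). With the replicate block it was called higher at 0.5 hpd (0.69, adjusted p = 0.0178) and 1 hpd (0.64, adjusted p = 0.0243) of SOX2 and at 6 hpd of OCT4 (0.79, adjusted p = 0.000975) as well. At 24 hpd Tead4 −14.9 kb fell by 1.00 on the log2 scale in OCT4-FKBP (adjusted p = 0.00608) and changed by −1.21 in NANOG-FKBP (adjusted p = 0.012, edgeR), and without NT replicate 1 the NANOG-FKBP value was −0.69 (adjusted p = 0.575). The NANOG-FKBP call was also lost without treated replicate 1 or 3 (adjusted p = 0.0696 and 0.0895), and the OCT4-FKBP call without NT replicate 2 or treated replicate 1 (adjusted p = 0.15 and 0.0689). The block also called Tead4 −14.9 kb higher at 0.5 and 1 hpd of SOX2 (0.62 and 0.57, adjusted p = 0.0238 and 0.0387) and lower at 6 hpd of OCT4 (−0.69, adjusted p = 0.00198). Tead4 +21.4 kb rose at 6 hpd of SOX2 (0.57, adjusted p = 0.0418) and fell at 24 hpd of OCT4 (−0.75, adjusted p = 0.026), and both calls were lost under DESeq2 (adjusted p = 0.242 and 0.0755). The first was lost without any of the 4 libraries compared (adjusted p from 0.144 to 0.241), the second without NT replicate 2 (−0.40, adjusted p = 0.414) or treated replicate 1 (−0.56, adjusted p = 0.273). Tead4 +18.5 kb fell at 24 hpd of SOX2 from a mean of 153 ± 5.6 to 76.6 ± 3.03 normalized counts (SD, n = 2), so it fell by 1.00 on the log2 scale (adjusted p = 8.59e-05, edgeR). Tead4 +26.8 kb went from 31.5 ± 8.07 to 12.6 ± 2.08 there, a log2 change of −1.27 (adjusted p = 0.00959). Tead4 +18.5 kb and Tead4 +26.8 kb did not meet the naming rule, and whether their calls held under the alternatives is not given.

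Amotl2 codes for an angiomotin-family scaffold that can hold YAP1 at cell junctions. Amotl2 +19.5 kb rose after OCT4 depletion from 10.7 and 10.1 normalized counts to 36.8 and 32.8 at 2 hpd and 43.9 and 48.2 at 6 hpd. The log2 changes were 1.73 (SE 0.37, adjusted p = 0.00135, edgeR) and 2.14 (SE 0.35, adjusted p = 1.65e-05). The untreated OCT4-FKBP libraries were the low ones, since SOX2-FKBP NT held 32.7 and 48.5 and NANOG-FKBP NT 53.5 and 25. In SOX2-FKBP the log2 change was −0.05 at 6 hpd in the fit of the 3 lines, and the difference SOX2 minus OCT4 was −2.19 (SE 0.49, adjusted p = 0.00595). At 24 hpd of OCT4 the rise was 1.23 (adjusted p = 0.0342), a call lost without any of the 4 libraries compared (adjusted p from 0.0756 to 0.197). In NANOG-FKBP cells the peak fell to 15.5, 18.2 and 14.2 at 24 hpd (log2 change −1.37, SE 0.38, adjusted p = 0.039), a call lost without NT replicate 1 (−0.70, adjusted p = 0.745) or treated replicate 1 or 3 (adjusted p = 0.161 and 0.16).

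Amotl2 −26.2 kb, which lies in distal sequence, fell in SOX2-FKBP cells from 496 and 524 normalized counts to 354 and 311 at 6 hpd and 296 and 316 at 24 hpd. The log2 change was −0.62 (SE 0.15, adjusted p = 0.00244, edgeR) and −0.73 (SE 0.15, adjusted p = 0.000226). OCT4-FKBP cells held 462 and 451 at NT, 604 and 530 at 2 hpd and 228 and 142 at 24 hpd, with a log2 change of −1.30 (SE 0.26, adjusted p = 0.00022) at 24 hpd. The 6 hpd call in SOX2-FKBP was lost without treated replicate 2 (−0.53, adjusted p = 0.0656), and in the fit of 27 libraries neither SOX2-FKBP change of Amotl2 −26.2 kb was called (−0.57 and −0.70, adjusted p = 0.201 and 0.0528). Amotl2 −23.4 kb, in an exon of the gene 4930533D04Rik near its start, rose at 6 hpd of OCT4 (0.70, adjusted p = 0.0449), a call lost without any of the 4 libraries compared (adjusted p from 0.0543 to 0.235). Amotl2 +17.5 kb rose at 24 hpd of OCT4 from 39.4 and 20.2 to 110 and 74.9 normalized counts (log2 change 1.67, SE 0.37, adjusted p = 0.000779), and without NT replicate 2 the change was 1.20 (adjusted p = 0.0538).

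**Figure D2:**
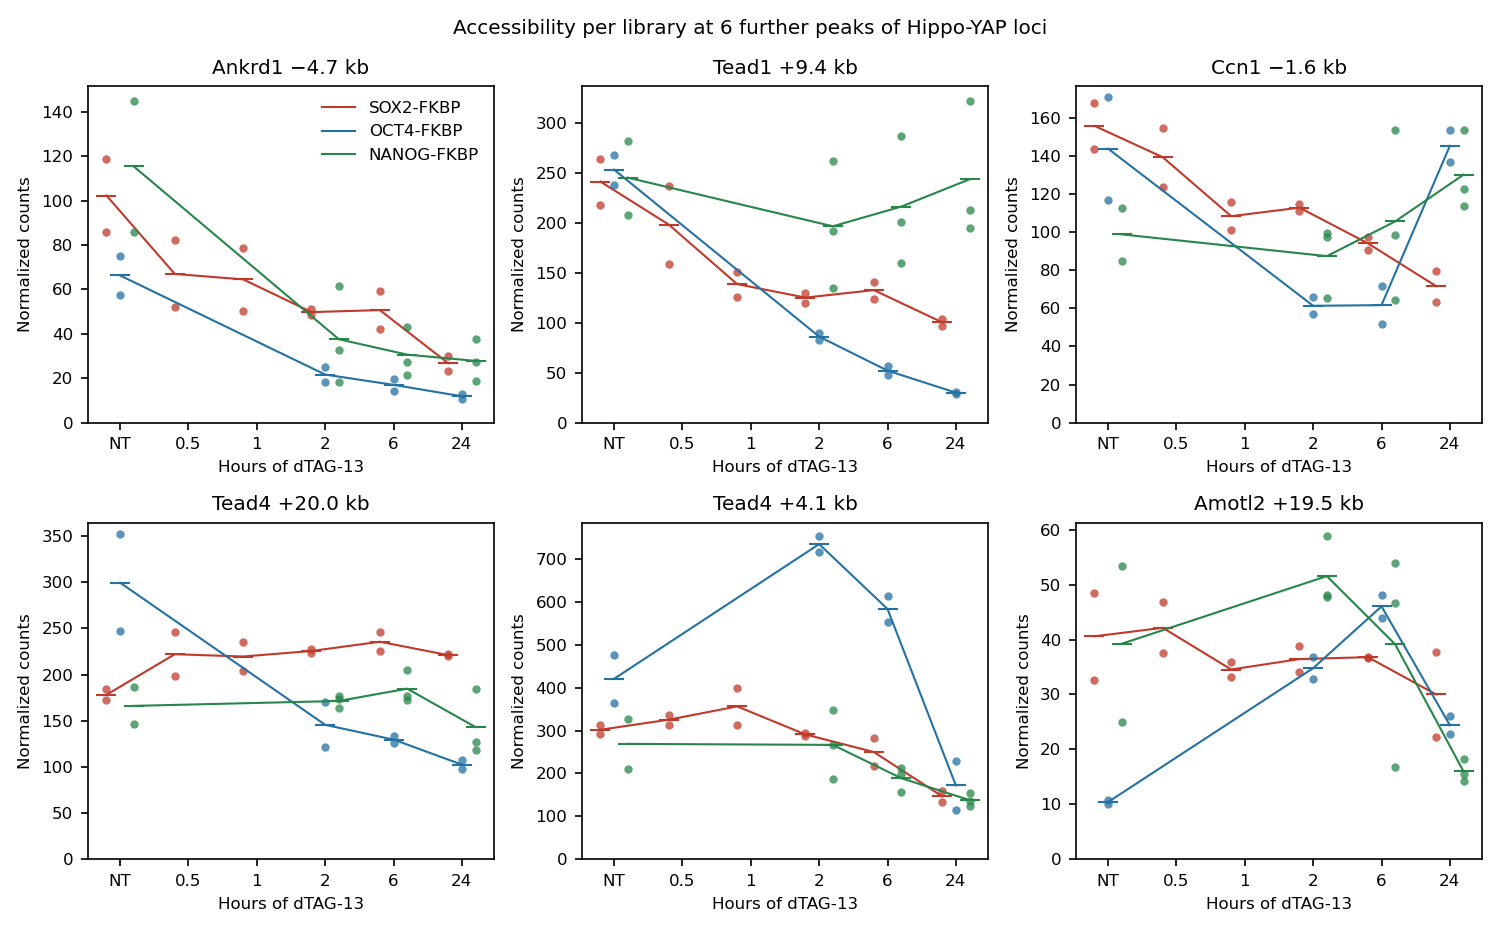
Normalized counts (vertical axis) of 6 further member peaks against hours of dTAG-13, with NT at the left and hours not to scale. Points are libraries, short bars and lines are group means for the 3 lines; Ankrd1 −4.7 kb fell in each line, Tead1 +9.4 kb fell furthest after OCT4 loss, Ccn1 −1.6 kb stands at 154 and 137 counts at 24 h of OCT4 loss, and Tead4 +20.0 kb was called lost in the OCT4 line and in no other.

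The remaining named peaks include 2 more gains after OCT4 loss. Ccn1 +16.9 kb went from 31.2 and 67.8 normalized counts at NT to 90.3 and 142 at 6 hpd (log2 change 1.19, SE 0.30, adjusted p = 0.00424, edgeR), with replicate 2 above replicate 1 at each time. The difference SOX2 minus OCT4 at 6 hpd was −1.64 (SE 0.47, adjusted p = 0.0439), and the OCT4-FKBP call was lost without NT replicate 1 (0.78, adjusted p = 0.17) or treated replicate 2 (0.86, adjusted p = 0.129). At 24 hpd of OCT4 the change was 1.15 (adjusted p = 0.00656), and it was not called without treated replicate 2 (0.44, adjusted p = 0.48) or NT replicate 1 (0.73, adjusted p = 0.147). The difference was lost without any of 7 libraries, among them the same OCT4-FKBP ones (adjusted p = 0.24 and 0.188), and under DESeq2 (adjusted p = 0.0601). Yap1 +20.7 kb, in an intron of Yap1, rose at 6 hpd of OCT4 from 117 and 108 to 217 and 172 (log2 change 0.79, SE 0.24, adjusted p = 0.018), and fell below the threshold without treated replicate 1 or either NT library (adjusted p from 0.0626 to 0.21). Lats2 −15.9 kb rose at 24 hpd of SOX2 from 83.3 and 48.5 to 126 and 107 (log2 change 0.76, adjusted p = 0.0195), a call lost without NT replicate 2 (0.48, adjusted p = 0.261) or treated replicate 1 (0.61, adjusted p = 0.15).

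In the fit of 27 libraries other SOX2-FKBP calls given here were lost as well. They were those at 2 hpd of Ccn2 −26.0 kb (−1.10, adjusted p = 0.0713), Ankrd1 −4.7 kb (−0.99, adjusted p = 0.0705) and Ankrd1 −9.3 kb (0.83, adjusted p = 0.24), at 6 hpd of Ccn1 −1.6 kb (−0.67, adjusted p = 0.123), Ankrd1 −4.7 kb (−0.97, adjusted p = 0.0583) and Tead4 +21.4 kb (0.62, adjusted p = 0.121), and at 24 hpd of Lats1 +0.6 kb (0.67, adjusted p = 0.0816) and Lats2 −15.9 kb (0.82, adjusted p = 0.0633). The replicate block added calls on losses of Ccn2 +20.6 kb (−1.35, adjusted p = 0.035) and Amotl2 −26.2 kb (−0.39, adjusted p = 0.0172) at 2 hpd of SOX2, Tead1 +12.2 kb at 6 hpd of SOX2 (−0.33, adjusted p = 0.0416) and 2 hpd of OCT4 (−0.47, adjusted p = 0.0327), and Ccn2 +21.3 kb at 6 hpd of OCT4 (−1.09, adjusted p = 0.0238). It added gains of Lats2 −15.9 kb at 0.5 and 6 hpd of SOX2 (0.62 and 0.56, adjusted p = 0.0369 and 0.0264), Amotl2 −23.4 kb and Yap1 +20.7 kb at 2 hpd of OCT4 (0.71 and 0.65, adjusted p = 0.00255 and 0.00628) and Amotl2 +17.5 kb at 6 hpd of OCT4 (0.72, adjusted p = 0.0176). Under DESeq2, calls on Ccn2 −26.0 kb were lost at 1 and 2 hpd of SOX2 (adjusted p = 0.311 and 0.205) and at 2 and 6 hpd of OCT4 (0.0947 and 0.0991). So were those on Ccn2 +20.6 kb at 2 hpd (adjusted p = 0.094) and Amotl2 −23.4 kb at 6 hpd of OCT4 (0.0677). DESeq2 did not call Amotl2 +19.5 kb at 24 hpd of NANOG (adjusted p = 0.0657) or Lats2 −15.9 kb at 24 hpd of SOX2 (0.0978) either.

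No start peak of a member gene was called lost in any line at 2 or 6 hpd, apart from Tead1 +12.2 kb at 6 hpd of OCT4, given above. Lats1 carried the start peak with the largest rise among the 6 that met the 1 kb rule. Lats1 +0.6 kb went from 151 and 161 normalized counts at NT to 452 and 298 at 24 hpd of OCT4, a log2 change of 1.26 (SE 0.26, adjusted p = 0.000341, edgeR), and from 185 and 178 to 252 and 313 at 24 hpd of SOX2 (0.63, SE 0.17, adjusted p = 0.00517). The SOX2-FKBP call was lost without either NT library or treated replicate 2 (adjusted p from 0.0506 to 0.115). Lats2 +12.3 kb, at an annotated start of Lats2, rose by 1.27 on the log2 scale at 24 hpd of OCT4 (SE 0.25, adjusted p = 0.000176), Ccn1 +0.2 kb by 1.00 (adjusted p = 0.00198) and Amotl2 +1.0 kb by 0.83 (adjusted p = 0.00346). The starts of Tead1 (0.78, adjusted p = 0.0174) and Yap1 (0.75, adjusted p = 0.0198) were called as well, whereas those of Tead4 (0.45, adjusted p = 0.0938) and Ccn2 (0.25, adjusted p = 0.473) were not. The starts of Lats2 and Amotl2 missed the 1 kb rule and were taken by an annotated transcript start after positions and values were seen.

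Gains at starts were frequent among all genes in this comparison. Of 13856 tested peaks within 1 kb of the start of a protein-coding gene, 48.6% gained accessibility at 24 hpd of OCT4, with a median log2 change of 0.61, beside 6 of 10 member starts. The 24 hpd replicate 1 library of OCT4 decided many of the calls, since without it the starts of Ccn1 (0.62, adjusted p = 0.16), Amotl2 (0.61, adjusted p = 0.105), Tead1 (0.43, adjusted p = 0.383) and Yap1 (0.46, adjusted p = 0.341) were not called. Those of Tead1 and Yap1 were not called without NT replicate 2 either (0.64 and 0.69, adjusted p = 0.177 and 0.135), nor that of Yap1 without NT replicate 1 (0.78, adjusted p = 0.0643). With the block the Tead4 start was called as well (0.44, adjusted p = 0.0159), as were those of Lats1 (0.63, adjusted p = 0.00365) and Amotl2 (0.39, adjusted p = 0.0456) at 6 hpd of OCT4. In SOX2-FKBP the block called gains of the Yap1 start at 6 and 24 hpd (0.46 and 0.45, adjusted p = 0.0101 and 0.00758) and of the starts of Amotl2, Lats2 and Tead4 at 24 hpd (0.37, 0.48 and 0.35, adjusted p = 0.0139, 0.0277 and 0.0329). Scaled by total counts, the starts of Tead1 and Yap1 were not called either (0.64 and 0.61, adjusted p = 0.0638 and 0.0804), a scaling that moved the median of all peaks in that comparison from −0.01 to −0.14.

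**Figure D3:**
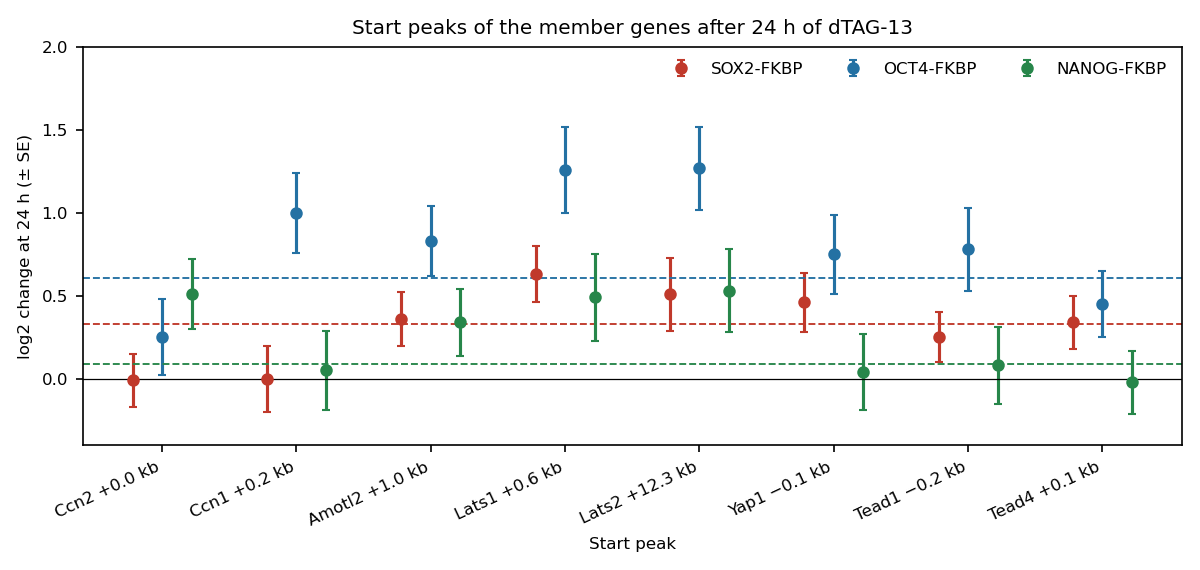
Log2 change at 24 h against NT (points, with bars for 1 SE) of the start peaks of 8 member genes in the 3 lines, with dashed lines at the median of all peaks within 1 kb of a protein-coding gene start in the same line. The OCT4-FKBP points lie above 0 from 0.25 to 1.27 around a dashed line at 0.61, and the SOX2-FKBP points lie between −0.01 and 0.63 around 0.33.

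Counted over the loci, the members are set here beside all tested peaks. In the SOX2-FKBP libraries, leaving out the 2 peaks that led to the set, 0 of 89 members were lost at 0.5 hpd, 5 at 1 hpd, 3 at 2 hpd, 6 at 6 hpd and 13 at 24 hpd. All tested peaks were lost at rates of 3.14%, 5.46%, 7.28%, 9.28% and 14.1% at these times, against 0%, 5.62%, 3.37%, 6.74% and 14.6% of the members. Gains were called at 1, 0, 2, 3 and 4 members, or 1.12%, 0%, 2.25%, 3.37% and 4.49%, and at 0.158%, 0.889%, 1.46%, 2.66% and 9.17% of all peaks. The losses at 1 hpd were Ccn2 −26.0 kb, Ccn2 +20.6 kb, Ccn1 +6.8 kb, Tead1 +5.7 kb and Tead1 +9.4 kb, and the gain at 0.5 hpd was Amotl2 +20.5 kb, which are named whether or not they met the naming rule. At 2 hpd the losses were Ccn2 −26.0 kb, Ankrd1 −4.7 kb and Tead1 +9.4 kb, and the gains Ankrd1 −9.3 kb and Tead4 −1.2 kb. The gains at 6 hpd were Amotl2 +20.5 kb, Tead4 −1.2 kb and Tead4 +21.4 kb, and those at 24 hpd Ccn1 +24.2 kb, Lats1 +0.6 kb, Lats2 −15.9 kb and Tead4 −1.2 kb. Of the 89 members, 11 had an unadjusted p-value under 0.05 in edgeR at 0.5 hpd and 17 at 1 hpd. The share of all peaks under that unadjusted p-value is not given. DESeq2 called 0 members lost and 0 gained at 0.5 hpd and 1 lost and 0 gained at 1 hpd. It also called fewer of all peaks, with 0.914% lost and 0.00686% gained at 0.5 hpd and 2.66% and 0.14% at 1 hpd. Single libraries decided several of these counts. In place of 5, 0 were lost at 1 hpd without treated replicate 1 and 1 without either NT library, and 1 in place of 3 was lost at 2 hpd without NT replicate 1. Gains went from 0 to 3 at 1 hpd without treated replicate 2, from 2 to 0 at 2 hpd without treated replicate 1 or either NT library, from 3 to 1 at 6 hpd without treated replicate 2 or either NT library, and from 4 to 1 or 2 at 24 hpd without NT replicate 1 or treated replicate 2. The gains at 2 hpd were 1 without either 0.5 hpd library, treated replicate 2 or 6 hpd replicate 1. The gain at 0.5 hpd was lost without any of the 4 libraries compared. With the replicate block the losses were 3, 7, 8, 8 and 14 over the 5 times and the gains 5, 5, 3, 8 and 13. The block also raised the shares of all peaks called, to 5.03% lost and 0.698% gained at 0.5 hpd, 7.31% and 2.4% at 1 hpd, 9.35% and 3.52% at 2 hpd, 11.4% and 5.27% at 6 hpd, and 16.5% and 13.6% at 24 hpd. Scaling by total counts gave 4 lost and 3 gained at 1 hpd in place of 5 and 0, where it called 4.91% of all peaks lost and 1.26% gained. At 2 hpd it called 6.36% of all peaks lost and 2.4% gained.

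After OCT4 depletion 6, 8 and 11 of 88 members were lost at 2, 6 and 24 hpd, or 6.82%, 9.09% and 12.5%, against 5.1%, 7.97% and 12.7% of all peaks. Gains were called at 2, 6 and 16 members, or 2.27%, 6.82% and 18.2%, against 1.92%, 4.12% and 10.8% of all peaks, and 6 of the 16 gains at 24 hpd were start peaks. The gains at 2 hpd were Amotl2 +19.5 kb and Tead4 +4.1 kb. The other 10 gains at 24 hpd were Tead1 −15.9 kb (log2 change 2.30), Amotl2 +17.5 kb (1.67), Ccn2 +26.4 kb (1.41), Yap1 +26.8 kb (1.26), Amotl2 +19.5 kb (1.23), Ccn1 +16.9 kb (1.15), Ccn1 +6.8 kb (1.09), Lats1 −18.1 kb (0.89), Lats1 −13.6 kb (0.82) and Tead4 −7.7 kb (0.65). Without the 24 hpd replicate 1 library 6 members gained in place of 16, without NT replicate 2 the gains at 6 hpd were 3 in place of 6, and without the 2 hpd replicate 1 library 3 members were lost at 2 hpd in place of 6 and 1 gained in place of 2. Losses were 5 in place of 8 at 6 hpd without 6 hpd replicate 1, and 7 in place of 11 at 24 hpd without 24 hpd replicate 1. The gains at 2 hpd were also 1 without 2 hpd replicate 2 or NT replicate 1. With total counts 10 gained and 14 were lost at 24 hpd, in place of 16 and 11, and over all peaks that scaling called 7.32% gained and 14% lost. The block moved the gains at 2 hpd from 2 to 5, those at 6 hpd from 6 to 15 and the losses at 24 hpd from 11 to 17, where it called 5.17% and 8.8% of all peaks gained and 15.9% lost. Among all tested peaks with a POU octamer in their 300 bases, 19.1% were lost at 2 hpd of OCT4. Of the 3 members with an octamer that had not led to the set, Ccn1 −1.6 kb and Tead1 +9.4 kb were lost and Tead4 −17.7 kb was not. At 2 hpd of SOX2, 0 of 46 members with the SOX pattern and 3 of 43 without it were lost, too few to read a direction. At 24 hpd of SOX2 these losses were 7 and 6. These counts leave out the 2 peaks that led to the set. Among all tested peaks with the SOX pattern, 10.6% were lost at 2 hpd and 18.9% at 24 hpd of SOX2. Of all tested peaks, 7.28% and 14.1% were lost at these times. Ccn2 −4.1 kb, which fell after SOX2 depletion, held no SOX pattern.

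NANOG depletion moved the fewest members of the 3 lines at 24 hpd. Members were lost at 1, 1 and 4 of 88 at 2, 6 and 24 hpd, or 1.14%, 1.14% and 4.55%, against 0.938%, 1.08% and 2.25% of all peaks. No member gained at any time, where 0.0162%, 0.0367% and 0.288% of all peaks did. By edgeR at an unadjusted p under 0.05 there were 7, 6 and 11 of 90 members in either direction, and the share of all peaks there is not given. DESeq2 called 0 gained members too, where it called 0.00781%, 0.0138% and 0.139% of all peaks gained. The 4 lost at 24 hpd were Ankrd1 −4.7 kb, Tead4 +4.1 kb, Tead4 −14.9 kb and Amotl2 +19.5 kb, and 1 was called without treated replicate 1, treated replicate 3 or NT replicate 1. At 2 hpd 0 were lost without treated replicate 1 or NT replicate 2, and at 6 hpd 0 without NT replicate 2 and 2 without NANOG-FKBP 2 hpd replicate 1, 6 hpd replicate 2, 24 hpd replicate 2 or OCT4-FKBP NT replicate 2. Without the shallow replicate 2 library of the same time, 1, 2 and 4 members were lost, and with the block 1, 2 and 4. The block raised the shares of all peaks lost to 1.98%, 2.27% and 3.66%.

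The difference between SOX2 and OCT4 depletion passed its own test at 1, 4 and 2 of 88 members at 2, 6 and 24 hpd, against 1.57%, 2.73% and 2.77% of all peaks. All of them are named above, as Tead4 +20.0 kb at each time, Tead1 +9.4 kb at 6 and 24 hpd, and Ccn1 +16.9 kb and Amotl2 +19.5 kb at 6 hpd. With the block the counts were 3, 8 and 10, against 4.39%, 6.47% and 7.04% of all peaks. Without OCT4-FKBP 2 hpd replicate 1, OCT4-FKBP NT replicate 2 or SOX2-FKBP 2 hpd replicate 1 none was called at 2 hpd, and without any of 9 others, of which 7 were NANOG-FKBP libraries, 2 were. At 6 hpd 2 were called without SOX2-FKBP 6 hpd replicate 2 or SOX2-FKBP NT replicate 1, and at 24 hpd 1 without the latter.

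At 24 hpd, 8 members were lost after SOX2 as well as after OCT4 depletion, outside the 2 peaks that led to the set. They were Ccn2 −26.0 kb, Ccn2 +20.6 kb, Ccn2 +21.3 kb, Ankrd1 −4.7 kb, Amotl2 −26.2 kb, Tead1 +9.4 kb, Tead1 +12.2 kb and Tead4 +4.1 kb, so Lats1, Lats2, Yap1 and Ccn1 held none. They made up 61.5% of the members lost in SOX2-FKBP and 72.7% of those lost in OCT4-FKBP, among members tested in both fits, where the shares over all peaks were 54.9% and 62.8%.

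**Figure D4:**
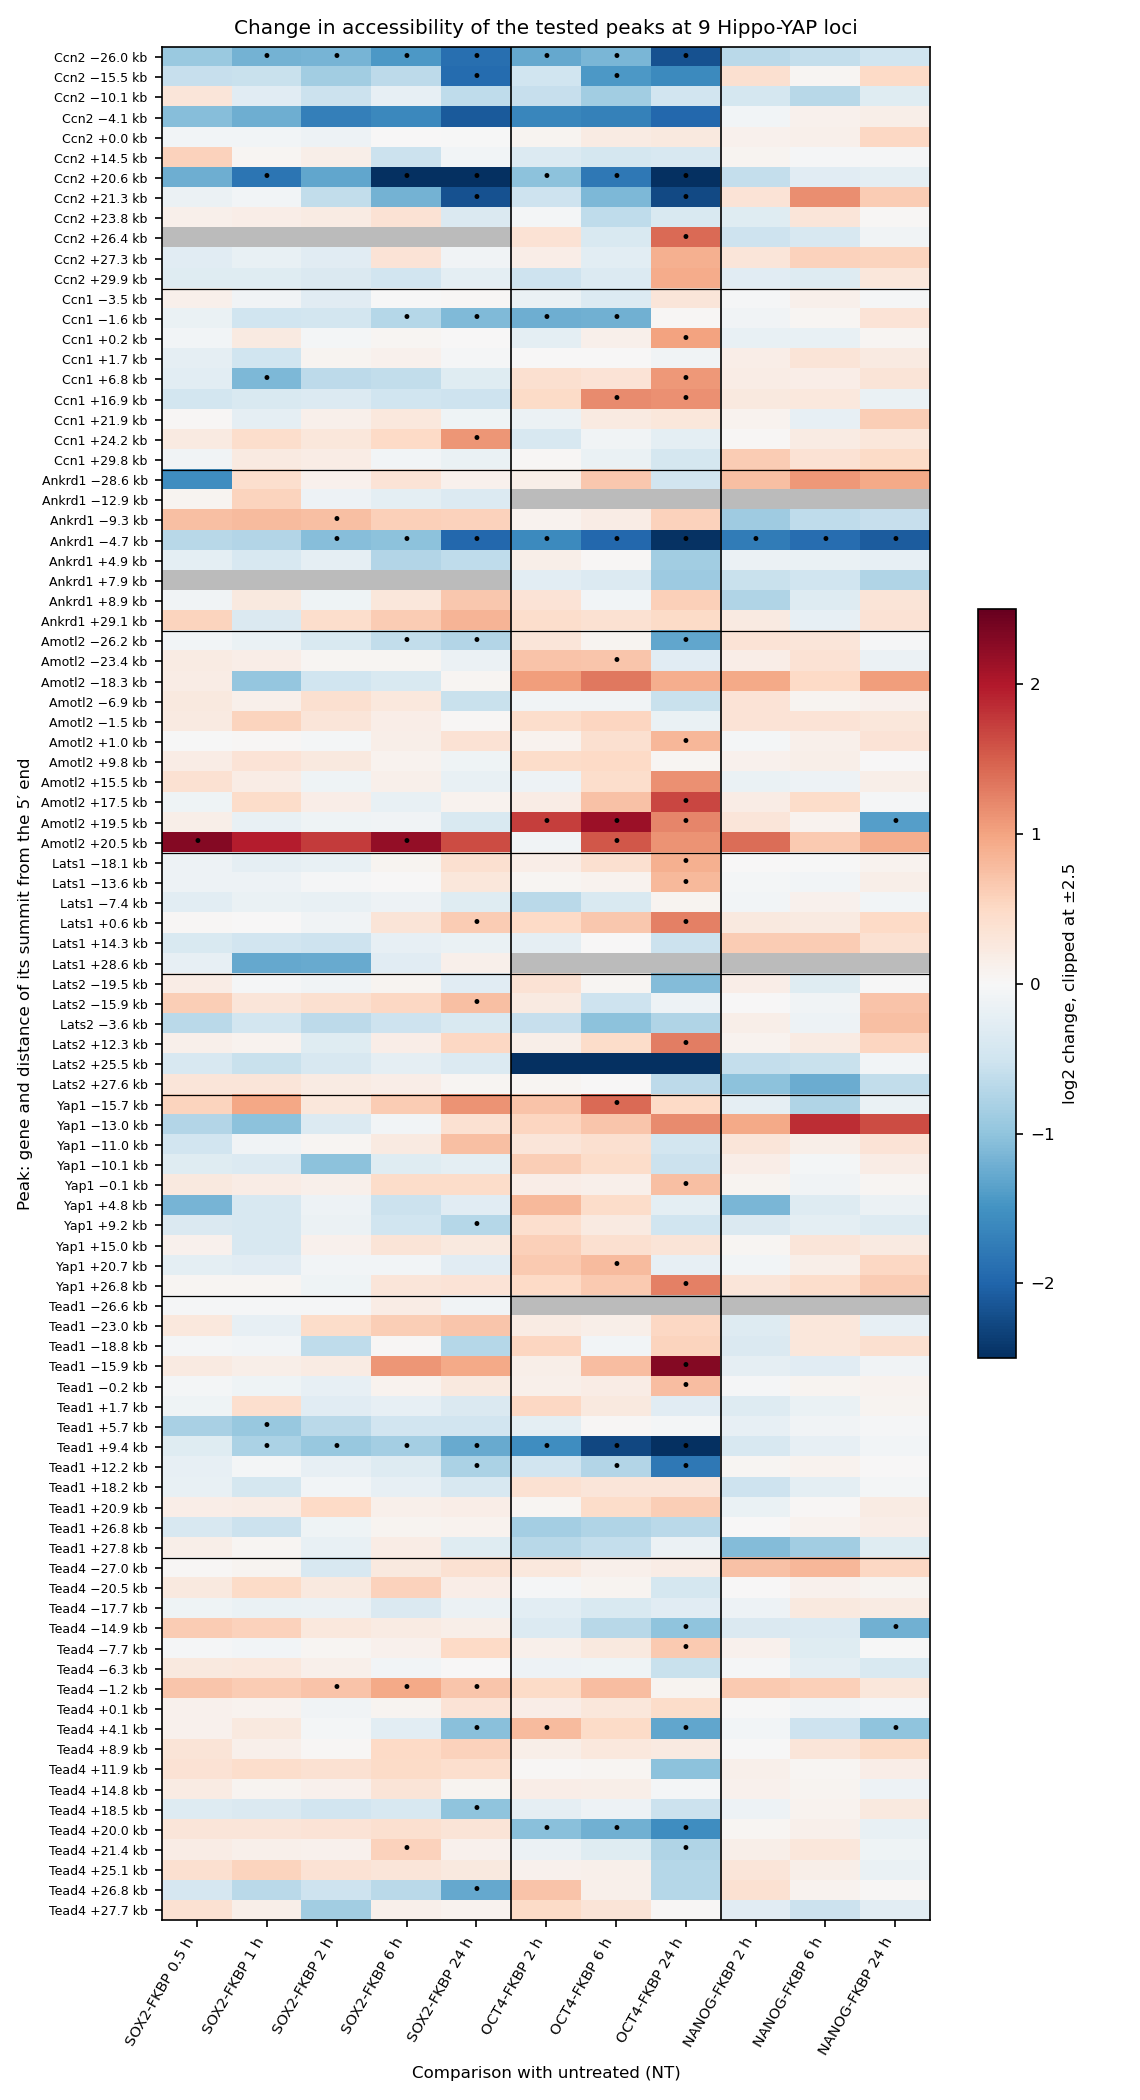
Log2 change (colour, red higher and blue lower, clipped at 2.5) of the 93 tested member peaks (rows, ordered by gene and distance from the 5′ end) in 11 comparisons with NT (columns). Dots mark calls at an adjusted p under 0.05 and grey cells were not tested; the Ccn2 −4.1 kb and Lats2 +25.5 kb rows carry no dots in the SOX2-FKBP and OCT4-FKBP columns because they were chosen from these values.

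**Figure D5:**
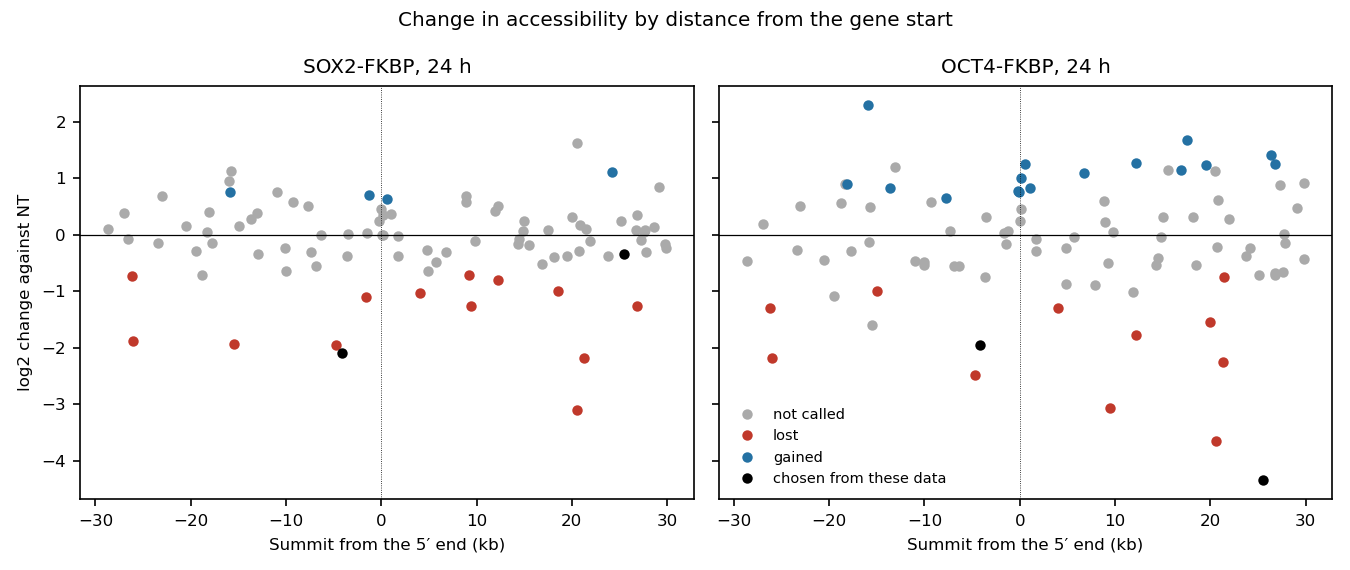
Log2 change at 24 h (vertical axis) of the tested members against the signed distance of their summit from the 5′ end in kb, for SOX2-FKBP (left) and OCT4-FKBP (right), with lost members in red, gained in blue, uncalled in grey and the 2 peaks that led to the set in black. Among the gains in the OCT4 panel are start peaks close to 0 kb, such as that of Lats1 at 1.26, and the losses include Ccn2 +20.6 kb at −3.65.

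Peaks of other genes of the pathway were counted in the same way. All tested peaks were lost and gained at 7.28% and 1.46% at 2 hpd of SOX2, at 14.1% and 9.17% at 24 hpd of SOX2, at 5.1% and 1.92% at 2 hpd of OCT4, and at 12.7% and 10.8% at 24 hpd of OCT4. Among 9 core kinase and scaffold genes, 1 of 81 tested peaks was lost at 2 hpd of SOX2 and 1 gained, or 1.23% each, and at 24 hpd 6 were lost (7.41%) and 12 gained (14.8%). At 24 hpd of OCT4 5 of 90 were lost (5.56%) and 15 gained (16.7%). The peak lost at 2 hpd of SOX2 was Stk3 +13.4 kb, by the gene of the kinase MST2 upstream of LATS, which went from a mean of 216 to 45.3 normalized counts at 2 hpd (log2 change −2.23, SE 0.22, adjusted p = 1.41e-09, edgeR) and to 15.8 at 24 hpd. Among 6 genes of other nuclear partners, 3 of 53 peaks were lost and 3 gained at 2 hpd of SOX2 (5.66% each), and 2 of 52 lost (3.85%) and 1 gained (1.92%) at 2 hpd of OCT4. At 24 hpd these were 9 lost and 7 gained for SOX2, or 17% and 13.2%, and 11 and 6 for OCT4, or 21.2% and 11.5%. Wwtr1, the gene of the YAP relative TAZ, held Wwtr1 +16.9 kb, which fell at 2 hpd of SOX2 from 166 to 72.6 (log2 change −1.17, adjusted p = 4.51e-05) and rose at 2 hpd of OCT4 from 50.1 to 106 (1.06, adjusted p = 0.0151). Its levels in the 2 lines are on separately computed scales, and a test of the difference between them is not given. Among 17 genes that are YAP targets in other cell types, 7 of 121 peaks were lost at 2 hpd of SOX2 (5.79%) and 10 of 124 at 2 hpd of OCT4 (8.06%), with 2 gained in each (1.65% and 1.61%). At 24 hpd 21 were lost and 12 gained for SOX2, or 17.4% and 9.92%, and 26 and 18 for OCT4, or 21% and 14.5%. NANOG gave 1 of 124 lost at 2 hpd, or 0.806% against 0.938% of all peaks. That 1 was Myof −1.8 kb, which went from 111 to 40.6 normalized counts (log2 change −1.35, SE 0.31, adjusted p = 0.0144). Stk3, Wwtr1 and Myof were named after their values were seen, and whether their calls held without 1 library is not given.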

How the data were processed

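Per the labels and methods, the authors aligned paired ATACseq reads of FKBP-tagged mouse ESCs to mm10 with BWA 0.7.17-r1188, filtered them with SAMtools 1.10 and Picard 2.12.0, ran MACS2 on the libraries merged, and for each peak counted the fragments that overlap it. No shift of fragment ends was stated. The deposited counts per peak are raw, with total counts from 1817191 to 17575631 per library. The deposited peak file gives a fold enrichment (ratio), a −log10 p-value and q-value and a score of the merged libraries, none of which was tested. The 31 libraries with a count column are a part of the 45 samples, and the other 14 are not analysed here.

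Counts were fitted with edgeR 4.0.16 in R 4.3.3 (quasi-likelihood test, TMM scaling, Benjamini-Hochberg adjustment over all tested peaks, threshold 0.05). Of the fits, 1 held the 12 SOX2-FKBP libraries (160432 peaks with over 10 counts in over 2 libraries) and 1 held 27 libraries of the 3 lines, without 0.5 and 1 hpd (166430 peaks, over 10 counts in over 6), which also gave the SOX2 minus OCT4 difference. The script was tested on simulated data with 200 changed peaks. Summits, sequences and annotation were read from GRCm38 with pysam 0.24.0, and figures were drawn with matplotlib 3.10.9 in Python 3.11.15.

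The members and lists were chosen with earlier results of these data known. Peaks were named if they led to the set, lay at a member's start within 1 kb, were among the 3 largest calls per comparison and direction with at least 50 normalized counts in the higher group and no overlap between groups, or passed the test of the difference, up to 3 per time. Peaks lost in both lines at 24 hpd were added later. Alternatives were DESeq2 1.42.0, its size factors, total counts, 2 other count filters, fits of fewer or more libraries, a replicate block, windows of 15 and 60 kb, and leaving out each library. Deviations from the group means of same-numbered libraries correlated from 0.118 to 0.497 in SOX2-FKBP and from 0.388 to 0.648 in OCT4-FKBP. In NANOG-FKBP 3 of 6 correlations were over 0.1. Same-numbered libraries thus shared part of their deviations in SOX2-FKBP and OCT4-FKBP, though the labels state no pairing. The main fits ignored this sharing, and the replicate block, which takes it into account, is given as an alternative. Replicates differed by more than counting noise.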

Additional observations from a re-analysis of the deposited data

Results flagged for a closer look

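The following changes differed between lines by the test of the difference in edgeR. For Tead4 +20.0 kb, SOX2 minus OCT4 was 1.45, 1.67 and 1.90 on the log2 scale at 2, 6 and 24 hpd. For Tead1 +9.4 kb it was 1.48 at 6 hpd and 1.85 at 24 hpd. For Ccn1 +16.9 kb and Amotl2 +19.5 kb it was −1.64 and −2.19 at 6 hpd.

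In other cases every treated library of one line lay below its NT libraries and every treated library of another line above its own. The share of all peaks that meet this rule was not counted, so these cases are a description only. For Ccn1 +16.9 kb at 24 hpd, which changed by −0.52 after SOX2 depletion while OCT4-FKBP was higher, the difference SOX2 minus OCT4 was −1.64 (SE 0.49, adjusted p = 0.0556, edgeR). For the other peaks, which involve NANOG-FKBP, the difference was not tested. Ccn2 +21.3 kb changed by −1.19 at 6 hpd of SOX2 and by −1.12 at 6 hpd of OCT4, while NANOG-FKBP libraries were higher. Neither its OCT4-FKBP fall (adjusted p = 0.0768, edgeR) nor its NANOG-FKBP rise was called. Ankrd1 −9.3 kb changed by −0.88 at 2 hpd of NANOG while SOX2-FKBP was higher. That NANOG-FKBP fall was not called, and the shallow replicate 2 library held 0 normalized counts. Without this library the change was −0.71 (adjusted p = 0.856, edgeR). Amotl2 +19.5 kb changed by −1.37 at 24 hpd of NANOG while OCT4-FKBP was higher.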

How the results depend on the processing

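Of 81 called results of named peaks, over 2322 values under alternatives, 2144 kept direction and call, 178 lost the call and 0 reversed. Most of these alternatives left out 1 library, often one outside the comparison. The share kept therefore does not measure how many calls held throughout, and many of the 81 results lost the call under at least 1 alternative. The counts of members called below leave out the 2 peaks that led to the set in SOX2-FKBP, OCT4-FKBP and the difference between lines. With the replicate block, SOX2-FKBP gave 3 lost and 5 gained at 0.5 hpd, 5 gained at 1 hpd, 8 lost at 2 hpd, and 8 and 13 gained at 6 and 24 hpd; OCT4-FKBP gave 5 and 15 gained at 2 and 6 hpd and 17 lost at 24 hpd, NANOG-FKBP 2 lost at 6 hpd, and the difference 3, 8 and 10, while other member counts stayed within 1.5 times. In NANOG-FKBP, deviations of same-numbered libraries correlated from 0.645 to 0.714 between treated times and from −0.0421 to 0.0777 between NT and these, so not every pair was over 0.1. In separate fits SOX2-FKBP gave 1 lost and 4 gained at 0.5 hpd and 7 gained at 24 hpd, OCT4-FKBP 1 gained at 2 hpd, 5 lost at 6 hpd and 10 gained at 24 hpd, and the difference 2 at 2 hpd. With the fit of 27 libraries SOX2-FKBP gave 1 lost and 0 gained at 2 hpd, 3 and 1 at 6 hpd and 0 gained at 24 hpd.

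DESeq2 gave 0 gained at 0.5 and 2 hpd, 1 lost at 1 hpd and 1 gained at 6 and 24 hpd of SOX2, and 3 gained at 6 hpd of OCT4. Over all peaks it called 0.00686%, 0.255%, 0.579% and 3.2% gained at 0.5, 2, 6 and 24 hpd of SOX2. It called 2.66% lost at 1 hpd of SOX2 and 2.86% gained at 6 hpd of OCT4. Total counts gave 2 and 3 gained at 0.5 and 1 hpd of SOX2 and 10 gained at 24 hpd of OCT4. With at least 10 counts in every library, SOX2-FKBP gave 0, 1 and 1 gained at 0.5, 2 and 6 hpd, OCT4-FKBP 3 lost and 0 gained, 5 and 2, and 9 gained at 2, 6 and 24 hpd, NANOG-FKBP 0, 0 and 2 lost, and the difference 2 at 6 hpd and 3 at 24 hpd; fewer peaks pass this filter. The window of 15 kb gave 0 gained at 0.5 hpd, 3 lost at 1 hpd, 3 lost and 1 gained at 6 hpd and 6 and 2 at 24 hpd of SOX2, 3 and 1, 4 and 0, and 5 and 9 for OCT4, and 0, 1 and 1 for the difference. The window of 60 kb gave 1 lost at 0.5 hpd, 5 lost at 2 hpd, 10 and 5 at 6 hpd and 11 gained at 24 hpd of SOX2, 4 gained, 14 lost, and 18 and 26 at 2, 6 and 24 hpd of OCT4, 1 gained at 24 hpd of NANOG, and 2 and 6 for the difference at 2 and 6 hpd; windows hold fewer or more peaks. The cause of the other shifts was not tested.

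Without 1 library at a time, SOX2-FKBP losses were 0 at 0.5 hpd and ranged from 0 to 6, 1 to 4, 4 to 6 and 11 to 13 at the later times, and gains from 0 to 1, 0 to 3, 0 to 2, 1 to 4 and 1 to 6 over the 5 times. OCT4-FKBP losses ranged from 3 to 6, 5 to 9 and 7 to 13, and gains from 1 to 3, 3 to 6 and 6 to 17. NANOG-FKBP losses ranged from 0 to 1, 0 to 2 and 1 to 4, with 0 gains. The difference ranged from 0 to 2, 2 to 4 and 1 to 3. Where 1 library of a group was left, it was assumed to vary like the others. The fits without 1 library estimated the trend of the spread from a subset of the peaks, unlike the main fit. No fit of all libraries was run in this way. A call that moved only slightly across the threshold can therefore not be put down to the library left out.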
